A study of Homo sapiens with 6 samples.

Results

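Transcripts of 10 genes of the central spindle and of the chromosomal passenger complex were followed in MDA-MB-231 cells, an established human line of triple-negative breast cancer (TNBC). The genes were PRC1, KIF4A, KIF23, RACGAP1, ECT2, AURKB, INCENP, CDCA8, BIRC5 and KIF20A, chosen by name, and each matched exactly 1 row among the 41471 gene symbols of the knockdown tables and the 34157 of the rebastinib tables. The study concerned the kinase CDK16 in TNBC and its relation to PRC1. In the knockdown experiment, stable lines carried a lentiviral scramble shRNA (the control), CDK16-sh1 or CDK16-sh2, delivered in a GFP-marked vector and isolated by cell sorting. In the inhibitor experiment, cells were given DMSO or rebastinib (Reb), a small-molecule kinase inhibitor, at 1 μM or 5 μM for 48 h. Every condition was 1 library, 6 libraries in all, so no difference below has a replicate check and intervals cover counting error only.

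PRC1 is a microtubule cross-linker that bundles antiparallel microtubules between the separating chromosomes in anaphase. KIF4A, a kinesin recruited by PRC1, restrains growth of the overlapping microtubule ends. KIF23 (a kinesin also known as MKLP1) and RACGAP1 form centralspindlin, which binds ECT2, the exchange factor that activates RhoA for furrow ingression. AURKB is the kinase of the chromosomal passenger complex, INCENP its scaffold, and CDCA8 (borealin) and BIRC5 (survivin) its targeting subunits, while KIF20A (MKLP2) carries the complex to the midzone. Transcripts of these genes are made mainly late in the cell cycle, so in bulk RNA a smaller number of cells near mitosis and less RNA per cell cannot be told apart.

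Genes of this kind often carry a cell cycle genes homology region (CHR) close to the start of transcription, commonly written TTTGAA or TTCGAA, with CCAAT boxes upstream. RefSeq promoter windows (GRCh38.p14, 250 bases before to 50 after each start) were held for 8 of the 10 genes, and RACGAP1 and BIRC5 had no entry. TTTGAA on either strand was found in 6 of the 8 (PRC1, KIF4A, KIF23, ECT2, INCENP and CDCA8) and in no window of AURKB or KIF20A. Among all 35116 promoter windows, 15.2% held it. TTCGAA was in 0 of the 8 and in 1.45% of all windows, and CCAAT on either strand was in 8 of the 8 and in 34.6% of all windows. Among these 8, for the 2 genes whose transcripts were closest to DMSO at 5 μM Reb (PRC1 and KIF23) and for the 4 that lay furthest below it, the stretch from -80 to 50 is shown 5′ to 3′ on the gene's strand. Capitals mark both motifs on either strand, so a CCAAT box on the opposite strand reads in reverse complement. They are letters found by search, not measured binding, and in CDCA8 the 2 motifs overlap by a base.
PRC1 (chr15:90994486-90994615, minus strand): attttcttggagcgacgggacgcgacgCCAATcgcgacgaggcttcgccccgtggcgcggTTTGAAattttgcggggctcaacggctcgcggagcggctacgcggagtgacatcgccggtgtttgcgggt
KIF23 (chr15:69414269-69414398, plus strand): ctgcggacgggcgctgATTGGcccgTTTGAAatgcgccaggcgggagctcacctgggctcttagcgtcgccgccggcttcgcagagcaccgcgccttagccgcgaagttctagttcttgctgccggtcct
AURKB (chr17:8210200-8210329, minus strand): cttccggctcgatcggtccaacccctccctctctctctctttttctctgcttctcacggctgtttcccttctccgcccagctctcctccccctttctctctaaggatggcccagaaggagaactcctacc
CDCA8 (chr1:37692436-37692565, plus strand): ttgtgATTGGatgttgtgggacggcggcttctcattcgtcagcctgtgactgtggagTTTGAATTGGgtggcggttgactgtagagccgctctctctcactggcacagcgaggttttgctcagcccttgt
INCENP (chr11:62123931-62124060, plus strand): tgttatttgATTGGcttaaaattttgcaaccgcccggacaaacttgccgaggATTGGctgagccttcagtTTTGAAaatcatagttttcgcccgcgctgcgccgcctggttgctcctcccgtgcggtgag
KIF20A (chr5:138179032-138179161, plus strand): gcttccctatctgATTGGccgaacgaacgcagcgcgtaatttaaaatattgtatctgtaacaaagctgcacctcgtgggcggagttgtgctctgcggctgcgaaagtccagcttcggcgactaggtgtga
TTTGAA began at -20 in PRC1, -55 in KIF23, -23 in CDCA8 and -10 in INCENP, counted from the annotated start. The AURKB stretch, which belongs to the more 5′ of 2 annotated starts, held neither motif, and its CCAAT letters lay further upstream at -129. The KIF20A stretch held CCAAT letters at -67 and no TTTGAA.

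Total counts ran from 25838443 to 31955119 per library in the knockdown experiment and from 37655548 to 50303269 in the Reb experiment. CDK16, the targeted gene, had counts of 3223 in scramble, 1360 in CDK16-sh1 and 846 in CDK16-sh2, which were 2.87-fold and 3.53-fold lower after scaling. All 6 markers listed for this line (VIM, CD44, KRT8, KRT18, AXL and CAV1) were at 22.4 CPM (counts scaled to a fixed library size) or more in every library, whereas ESR1 and PGR stayed at 0.294 CPM or less. Also listed as low in this line, CDH1 stayed at 0.894 CPM or less, whereas EPCAM reached 15.1 CPM and ERBB2 60.1 CPM. Of the markers for other cells, PTPRC and CD3E were at 0.590 CPM or less, whereas CD68, PECAM1 and COL1A1 reached 715 CPM, 2.64 CPM and 23.8 CPM. The share of counts on mitochondrial transcripts was 11.3%, 10.4% and 16.2% in scramble, CDK16-sh1 and CDK16-sh2, and 7.19%, 8.30% and 16.4% in DMSO, Reb 1 μM and Reb 5 μM. The CDK16-sh2 and Reb 5 μM libraries therefore stood apart from their partners. Leaving mitochondrial transcripts out of the scaling gave the same number of the 10 genes past 2-fold in every comparison.

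Values below are raw counts per library, levels per length as RPKM (reads per kilobase of exon and per library size, rescaled by trimmed mean of M-values, TMM), and log2 fold changes of TMM-scaled CPM with 95% exact counting intervals. In scramble cells, AURKB was the most abundant of the 10 at 63.8 RPKM, followed by INCENP at 58.9 and PRC1 at 57.3, whose counting intervals overlapped. RACGAP1 was the least abundant at 14.8 RPKM. In DMSO cells the order was different, with INCENP at 128 RPKM and PRC1 at 109 RPKM far above KIF20A, the next, at 36.3 RPKM, while RACGAP1 was again last at 10.4 RPKM. AURKB (30.3) and KIF23 (29.9) did not differ beyond their counting intervals in DMSO, nor did BIRC5 (23.6), CDCA8 (22.9) and ECT2 (22.8).

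**Figure D1:**
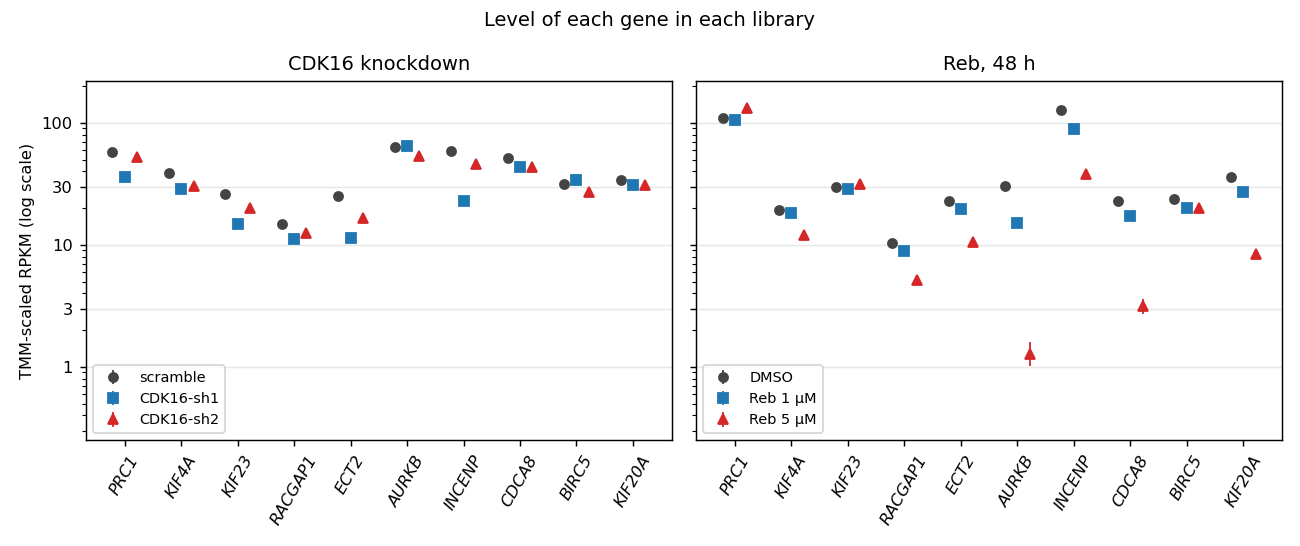
Level of each gene in each library, as TMM-scaled RPKM on a log axis, for the knockdown libraries (left) and the Reb libraries (right). Points are single libraries and bars are 95% counting intervals. In the Reb 5 μM library AURKB sits at 1.29 RPKM and CDCA8 at 3.13, below the other 8 genes, while PRC1 sits at 133.

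The first comparison asked how these transcripts differed when CDK16 was knocked down. In CDK16-sh1, 8 of the 10 were below scramble and 2 were at least 2-fold lower, INCENP and ECT2. In CDK16-sh2, all 10 were below scramble, from -0.12 to -0.62 on the log2 scale and under every scaling tried, and 0 were at least 2-fold lower. Among all 15295 expressed genes, 6.86% were at least 2-fold lower and 4.33% at least 2-fold higher in CDK16-sh1, and 7.62% and 2.20% in CDK16-sh2. None of the 10 was at least 2-fold higher with either hairpin. Over the 10, the medians were -0.41 (CDK16-sh1) and -0.25 (CDK16-sh2), beside 0.00 and 0.02 over all genes.

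PRC1 itself (15:90966038-90995629, minus strand, GRCh38) had 8622 counts in scramble, 6584 in CDK16-sh1 and 7323 in CDK16-sh2. The log2 fold changes were -0.67 (-0.71 to -0.62) and -0.13 (-0.17 to -0.08), so both lines were below scramble but by unequal amounts. KIF4A (X:70290090-70420832, plus strand) had 4802, 4327 and 3492 counts, and its differences of -0.43 (-0.49 to -0.37) and -0.35 (-0.42 to -0.29) were alike in size with the 2 hairpins.

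Among the centralspindlin genes, ECT2 had the largest difference seen with both hairpins. ECT2 (3:172750682-172821474, plus strand) had 3784 counts in scramble, 2058 in CDK16-sh1 and 2289 in CDK16-sh2, with log2 fold changes of -1.15 (-1.23 to -1.08) and -0.62 (-0.69 to -0.54). KIF23 (15:69414246-69448427, plus strand) had 4505, 3144 and 3248 counts, at -0.80 (-0.86 to -0.73) and -0.36 (-0.43 to -0.30). RACGAP1 (12:49976923-50033136, minus strand), the partner of KIF23 in the same complex, had 1814, 1667 and 1414 counts, at -0.40 (-0.50 to -0.30) and -0.25 (-0.35 to -0.15). All 3 genes were thus lower with each hairpin, with the larger differences in CDK16-sh1.

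In CDK16-sh1 the passenger genes divided into INCENP and the rest, whereas in CDK16-sh2 the intervals of INCENP, AURKB and CDCA8 overlapped. INCENP (11:62123973-62153163, plus strand) had 7177 counts in scramble, 3370 in CDK16-sh1 and 5243 in CDK16-sh2. It was 2.58-fold lower in CDK16-sh1 (log2 -1.37, -1.43 to -1.31) but only 1.27-fold lower in CDK16-sh2 (-0.35, -0.40 to -0.29). AURKB (17:8204733-8210600, minus strand) had 3890, 4778 and 3056 counts, at 0.02 (-0.04 to 0.08) and -0.24 (-0.31 to -0.17). With AURKB the CDK16-sh1 library was not distinguishable from scramble by counting error alone. CDCA8 (1:37692418-37709719, plus strand) had 3478, 3531 and 2723 counts, at -0.25 with each hairpin (-0.32 to -0.19 and -0.32 to -0.17). BIRC5 (17:78214186-78225636, plus strand) had 3246, 4252 and 2622 counts, and lay on opposite sides of scramble, at 0.11 (0.05 to 0.18) in CDK16-sh1 and -0.20 (-0.28 to -0.13) in CDK16-sh2. KIF20A (5:138178719-138187715, plus strand), the carrier of the complex, had 3638, 4046 and 3118 counts and the smallest shared difference, -0.12 in both lines.

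**Figure D2:**
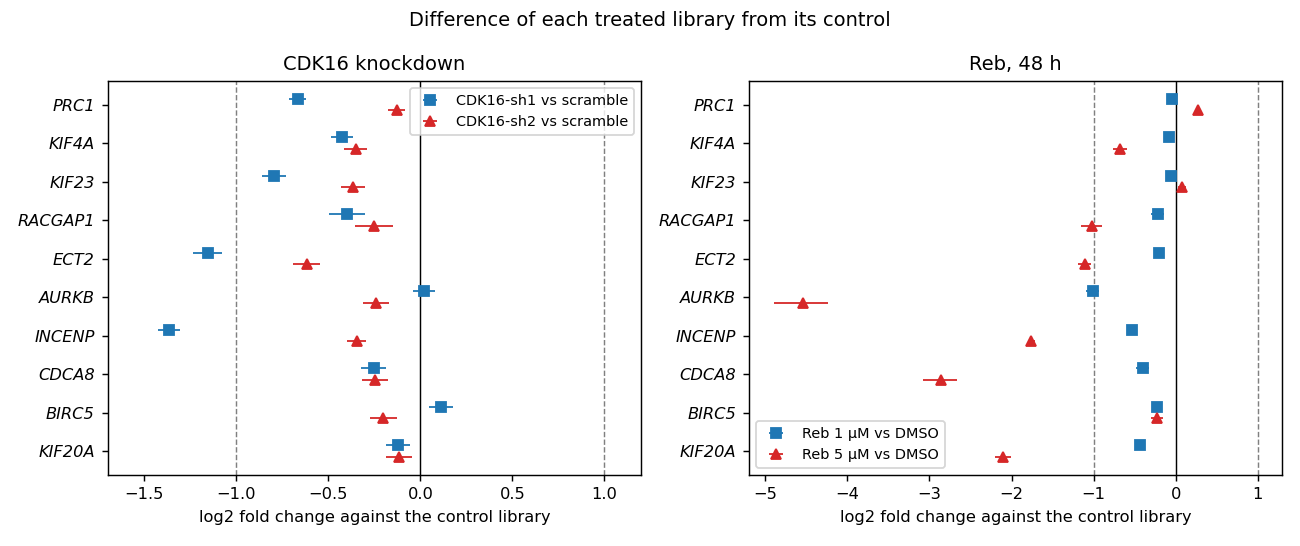
Log2 fold change of each gene in each treated library against its control library (left, CDK16-sh1 and CDK16-sh2 against scramble; right, Reb 1 μM and 5 μM against DMSO). Bars are 95% counting intervals and dashed lines mark 2-fold. INCENP and ECT2 pass 2-fold in CDK16-sh1, and 6 genes pass it at Reb 5 μM, led by AURKB at -4.54.

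Directly compared, CDK16-sh2 exceeded CDK16-sh1 at 8 of the 10 genes, beside 49.9% of all genes, with a median of 0.11 beside 0.00 over all genes, and 1 gene was at least 2-fold higher. That gene was INCENP, at 1.02 (0.96 to 1.08). Over all genes, 6.53% were at least 2-fold higher and 8.68% at least 2-fold lower between the 2 lines. By library totals the median turned to -0.06, KIF4A, RACGAP1, CDCA8 and KIF20A lay below CDK16-sh1, and INCENP, at 0.85, no longer passed 2-fold. PRC1 and ECT2 each differed by 0.54 between the hairpins, whereas CDCA8 and KIF20A differed by 0.01, with intervals that included 0. CDK16 was 1.23-fold lower in CDK16-sh2 than in CDK16-sh1. By TMM, AURKB (-0.26) and BIRC5 (-0.31) were also lower in CDK16-sh2, and the other 8 genes were not. A relation of these differences to the level of CDK16 was not tested.

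With both hairpins taken as 1 group against scramble, edgeR's quasi-likelihood test called 0 of the 10, and 0% of all 15295 genes passed at an adjusted p of 0.05 and 2-fold. At an unadjusted p under 0.05, 0 of the 10 and 382 of all genes passed in edgeR, and DESeq2, which called 0 of the 10 and 0% of all genes as well, had 0 of the 10 and 233 of all genes at that level. ECT2 came nearest, at -0.86 with an adjusted p of 1.00 (unadjusted 0.0849), and CDK16 itself was at -1.66 with an adjusted p of 0.804. This fit had 1 residual degree of freedom and took the difference between hairpins as its error.

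Gene composition moved with the CDK16-sh1 difference and, in the other direction, with the Reb differences. Across 15161 genes, the log2 fold change in CDK16-sh1 had a Pearson r of 0.43 with GC content, against 0.10 in CDK16-sh2, as a description of these libraries. Across 15509 genes of the Reb experiment, r was -0.30 at 1 μM and -0.20 at 5 μM. ECT2 (39.7% GC) and KIF23 (42.1% GC) are the most AT-rich of the 10, and INCENP (57.8% GC) and AURKB (56.3% GC) the most GC-rich. After the trend with GC and length was removed, ECT2 in CDK16-sh1 was at -0.68 and no longer past 2-fold, KIF23 at -0.35 and PRC1 at -0.47, while INCENP was at -1.60. AURKB in CDK16-sh1 then lay at -0.29, and it also turned from 0.02 to -0.01 with scaling by library totals.

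The second comparison asked how the same transcripts differed after Reb. At 1 μM, all 10 were below DMSO, from -0.05 to -1.01 on the log2 scale, and 1 was at least 2-fold lower, AURKB. By library totals PRC1 lay at 0.00 and the other 9 below DMSO. Among all 15655 expressed genes, 1.92% were at least 2-fold lower and 1.28% at least 2-fold higher at 1 μM. At 5 μM, 8 of the 10 were below DMSO and 6 were at least 2-fold lower: AURKB, CDCA8, KIF20A, INCENP, ECT2 and RACGAP1. The 5 μM library differed widely from DMSO, with 27.2% of all genes at least 2-fold lower and 23.6% at least 2-fold higher, and none of the 10 was among the latter. The median over the 10 was -0.23 at 1 μM and -1.07 at 5 μM, beside 0.00 and -0.07 over all genes.

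AURKB, the passenger kinase, had the largest difference. It had 3954 counts in DMSO, 1997 at 1 μM and 78 at 5 μM. These were 2.01-fold lower at 1 μM (log2 -1.01, -1.09 to -0.93) and 23.2-fold lower at 5 μM (-4.54, -4.90 to -4.23). The level per length went from 30.3 RPKM in DMSO to 15.0 and 1.29, from the fourth of the 10 to the last. At 1 μM it passed 2-fold by TMM but not by library totals, at -0.96, or with the GC and length trend removed, at -0.87.

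The other passengers followed in an uneven order. CDCA8 had 3291 counts in DMSO, 2529 at 1 μM and 209 at 5 μM, which were 1.32-fold and 7.27-fold lower (log2 -0.40, -0.48 to -0.33, and -2.86, -3.08 to -2.67). INCENP had 33435, 23418 and 4582 counts, at -0.54 (-0.56 to -0.51) and -1.76 (-1.80 to -1.71). With the GC and length trend removed, INCENP was at -0.40 at 1 μM and -1.24 at 5 μM. BIRC5 had 5251, 4539 and 2080 counts, at -0.23 at both doses (-0.29 to -0.18 and -0.30 to -0.15). AURKB, CDCA8 and INCENP were thus lower at 5 μM than at 1 μM, whereas BIRC5 differed by 0.01 (-0.07 to 0.08) between the doses by TMM and was lower at 5 μM by library totals. KIF20A, the kinesin that moves the complex, had 8370, 6306 and 904 counts, at -0.43 (-0.48 to -0.38) and -2.10 (-2.20 to -2.00).

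PRC1 did not follow AURKB, CDCA8 and INCENP. It had 35274 counts in DMSO, 34689 at 1 μM and 19824 at 5 μM, with log2 fold changes of -0.05 (-0.07 to -0.03) and 0.28 (0.25 to 0.30). Its direction at 5 μM depended on the scaling, since by library totals it was at -0.41. KIF4A had 5074, 4879 and 1470 counts, at -0.08 (-0.14 to -0.02) and -0.68 (-0.76 to -0.60). KIF4A was therefore lower than DMSO at 5 μM by each scaling, and PRC1 was not.

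The 2 components of centralspindlin also parted. KIF23 had 11120, 10819 and 5443 counts, at -0.06 (-0.10 to -0.02) and 0.08 (0.03 to 0.12), and its 5 μM value turned to -0.61 by library totals, -0.13 without the filter on low counts and -0.23 with the GC and length trend removed. RACGAP1 had 2721, 2374 and 620 counts, at -0.22 (-0.30 to -0.14) and -1.02 (-1.15 to -0.90), which DESeq2 size factors placed at -0.96, just short of 2-fold. ECT2 had 7318, 6468 and 1575 counts, at -0.20 (-0.25 to -0.15) and -1.11 (-1.19 to -1.03). By TMM alone, RACGAP1 and its binding partner ECT2 thus had like differences at 5 μM, while KIF23 was nearer to DMSO. With the GC and length trend removed, RACGAP1 was at -1.10 and ECT2 at -1.50 at 5 μM.

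**Figure D3:**
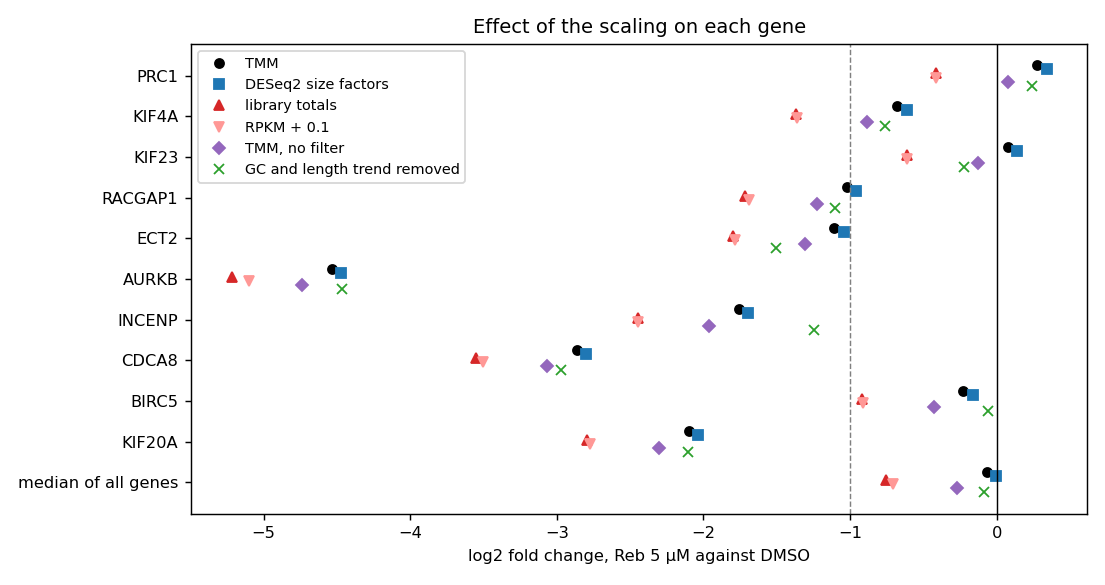
Log2 fold change of each gene at Reb 5 μM against DMSO under 6 ways of scaling, with the median of all expressed genes in the lowest row. Library totals move the median of all genes to -0.75 and every gene by a like amount, so PRC1 and KIF23 change sign while the order cannot change. With the GC and length trend removed, ECT2 lies below INCENP.

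The share of counts held by the 100 most abundant genes was 35.3% at 5 μM and 24.3% in DMSO, and library totals moved the median of all genes at 5 μM by -0.68. Such a change of library size moves every gene alike, so it cannot alter the order of the 10. By library totals AURKB was at -5.22, CDCA8 at -3.55, KIF20A at -2.79 and INCENP at -2.45. Removing the GC and length trend can alter the order, and placed ECT2 (-1.50) below INCENP (-1.24) and KIF23 (-0.23) below BIRC5 (-0.06). Between the 2 doses, 4 of the 10 (AURKB, CDCA8, INCENP and KIF20A) were at least 2-fold lower at 5 μM than at 1 μM, beside 25.8% of all genes, and 0 were at least 2-fold higher, beside 22.8%. The largest of these differences was AURKB at -3.53 (-3.89 to -3.22), 11.5-fold lower at 5 μM. With the GC and length trend removed, INCENP (-0.84) no longer passed 2-fold between the doses and ECT2 (-1.14) did.

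With both doses taken as 1 group, edgeR's quasi-likelihood test called 0 of the 10 and 0.0767% of all genes, and DESeq2 called 0 of the 10 and 0.115% of all genes. At an unadjusted p under 0.05, 0 of the 10 passed with either tool, beside 228 of all genes in edgeR and 312 in DESeq2. AURKB was at -1.89 with an adjusted p of 1.00 (unadjusted 0.0872), in a fit whose error was the difference between the doses. With dose as a linear term (log2 of dose plus 1), 4 of the 10 and 24.5% of all genes passed edgeR's test. These were AURKB, at -4.67 over the dose range with an adjusted p of 7.1e-06, CDCA8 (-2.99, 0.0013), KIF20A (-2.17, 0.0129) and INCENP (-1.78, 0.0482). The fit rested on 3 libraries and 1 residual degree of freedom. Its error came from departures from a straight line, not from a spread between replicates. The 10 were chosen with earlier results of these data known, so their share beside that of all genes is no test of the group.

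Ratios between transcripts of 1 library need no scaling between libraries, and were taken per exon length. They were not corrected for the trend with GC and length. AURKB stood at 108% of INCENP in scramble (104 to 113), 283% in CDK16-sh1 (271 to 296) and 116% in CDK16-sh2 (111 to 122). In the Reb experiment the same ratio was 23.6% in DMSO (22.8 to 24.4), 17.0% at 1 μM (16.3 to 17.8) and 3.40% at 5 μM (2.68 to 4.25). The higher ratio in CDK16-sh1 went with a lower INCENP level and an AURKB level within counting error of scramble, whereas at Reb 5 μM both genes were below DMSO, AURKB by more. The controls of the 2 experiments also differed, in that INCENP made up 28.7% of the summed passenger RPKM in scramble and 62.6% in DMSO. These came from separate experiments and tables, so that difference was not compared further.

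**Figure D4:**
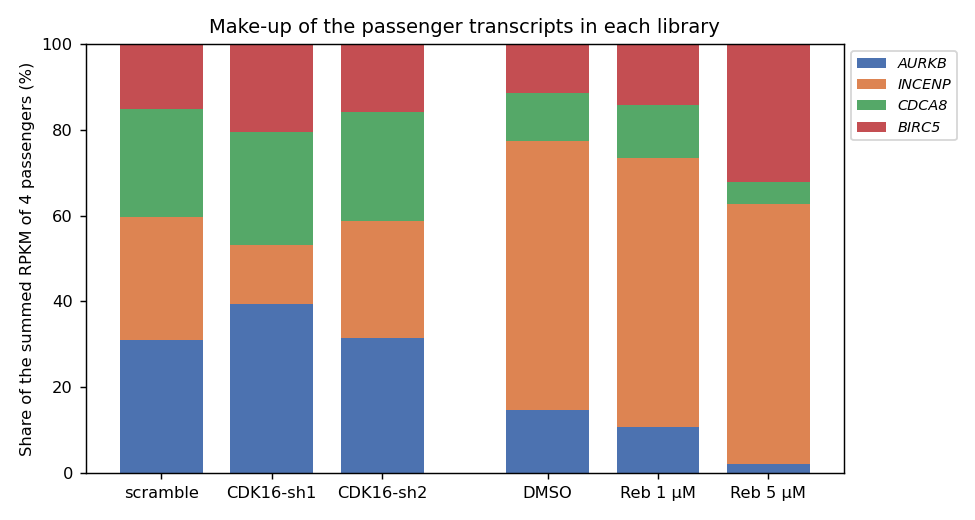
Share of AURKB, INCENP, CDCA8 and BIRC5 in their summed TMM-scaled RPKM, as stacked bars to 100% for each of the 6 libraries. The INCENP share is 13.9% in CDK16-sh1 against 28.7% in scramble, and at Reb 5 μM the AURKB share is 2.06% and the BIRC5 share 32.3%.

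Only BIRC5 had a larger share of the 4 passengers at 5 μM than in DMSO. Its share of the passenger RPKM was 11.5% in DMSO, 14.3% at 1 μM and 32.3% at 5 μM, while the CDCA8 share was 11.2%, 12.3% and 5.01%. AURKB was at 128% of BIRC5 in DMSO (123 to 134), 74.9% at 1 μM (71.0 to 79.0) and 6.38% at 5 μM, beside 204%, 191% and 198% in scramble, CDK16-sh1 and CDK16-sh2. The uncorrected ratio of AURKB to BIRC5 thus differed little among the knockdown libraries and widely among the Reb libraries. With the GC and length trend removed, AURKB in CDK16-sh1 was at -0.29 and BIRC5 at 0.05 on the log2 scale against scramble. The INCENP share was 62.6%, 62.8% and 60.6% in the Reb libraries, although its level per length was lower at each dose.

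Outside the passengers, KIF4A stood at 17.5% of PRC1 in DMSO (17.0 to 18.1), 17.1% at 1 μM (16.6 to 17.7) and 9.04% at 5 μM (8.57 to 9.53). The pair was much closer in the knockdown experiment, where KIF4A was at 67.9% of PRC1 in scramble, 80.1% in CDK16-sh1 and 58.1% in CDK16-sh2. RACGAP1 stood at 34.8% of KIF23 in DMSO, 31.2% at 1 μM and 16.2% at 5 μM, and at 57.2%, 75.4% and 61.9% in scramble, CDK16-sh1 and CDK16-sh2. ECT2 against RACGAP1 was at 219% in DMSO, 222% at 1 μM and 207% at 5 μM, with overlapping counting intervals. With the hairpins the same ratio went from 170% in scramble (161 to 180) to 101% in CDK16-sh1 (94.4 to 108) and 132% in CDK16-sh2 (124 to 141). All these ratios are uncorrected, and those of CDK16-sh1 carry its GC trend. With that trend removed, the log2 fold changes in CDK16-sh1 were -0.68 for ECT2, -0.24 for RACGAP1 and -0.35 for KIF23. Before its removal they were -1.15, -0.40 and -0.80. KIF20A against KIF23 was at 121%, 93.9% and 26.8% in DMSO, 1 μM and 5 μM.

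Beside the 10 genes, 6 lists of related genes were examined: 37 cytokinesis partners, 19 genes of the centromere and of passenger docking, 15 kinesins, 20 genes of mitotic entry, 30 of the kinetochore and checkpoint, and 25 of DNA replication. The kinesins were those of the mitotic spindle together with transport motors (KIF1B, KIF1C, KIF3A, KIF3B and KIF5B), whose values enter the medians of that list. In CDK16-sh1 the median log2 fold change was -0.64, -0.53, -0.79, -0.28, -0.52 and -0.35 over these lists in that order, so the -0.41 of the 10 lay within their range. In CDK16-sh2 they were -0.33, -0.03, -0.32, -0.30, -0.24 and -0.62, beside -0.25 for the 10. At 1 μM Reb the lists ran from -0.15 (kinetochore and checkpoint) to 0.12 (DNA replication), all above the -0.23 of the 10. At 5 μM they were -0.42, -0.58, -0.88, -1.40, -1.24 and -1.55, beside -1.07 for the 10.

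**Figure D5:**
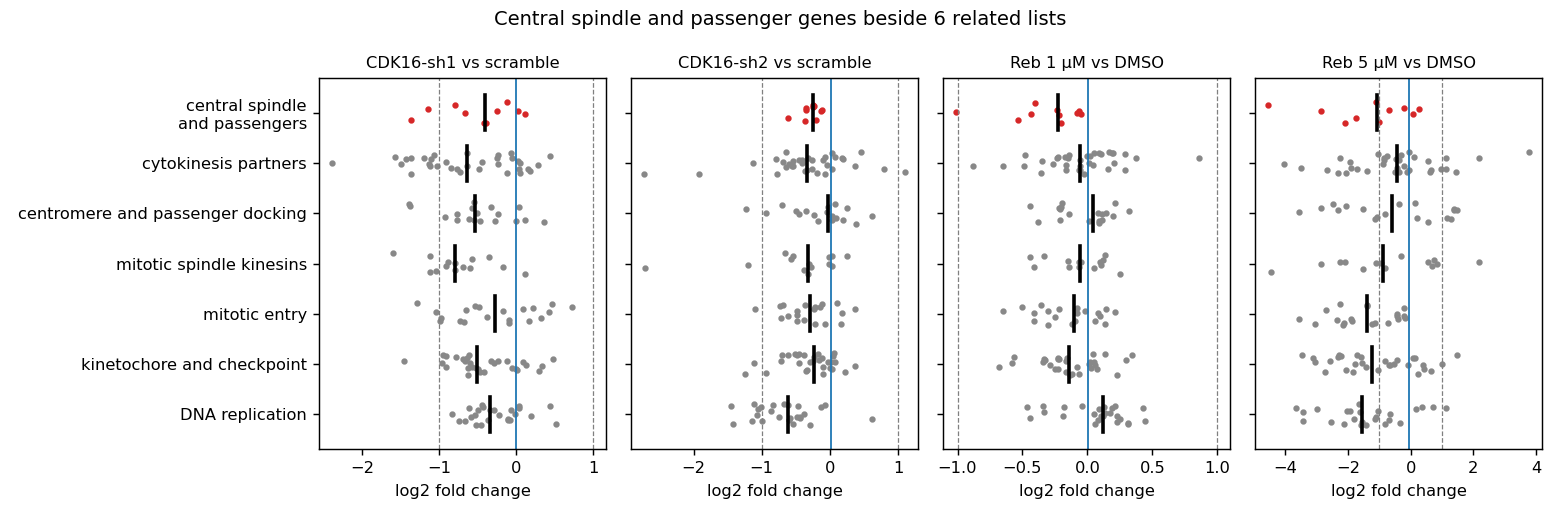
Log2 fold change of the 10 genes (red) and of 6 related lists (grey) in each treated library against its control. The list labeled mitotic spindle kinesins also holds transport kinesins. Each point is a gene, short black lines are list medians, the blue line is the median of all expressed genes and dashed lines mark 2-fold. At Reb 1 μM the 10 genes have the lowest median, -0.23, and AURKB is the point past 2-fold.

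Pooled and without the 10 genes, the lists had 138 expressed genes in the knockdown experiment. Of these, 21 were at least 2-fold lower with CDK16-sh1 and 16 with CDK16-sh2 (15.2% and 11.6%, beside 6.86% and 7.62% of all genes). With the GC and length trend removed, 8 and 10 were. The share of all genes is not given for that setting, so no excess can be read from the 8 and 10. In the Reb experiment the lists had 139 expressed genes. Of these, 0 were at least 2-fold lower at 1 μM, beside 1.92% of all genes, and 68 at 5 μM (48.9%, beside 27.2%). At least 2-fold higher were 0 with CDK16-sh1, 1 with CDK16-sh2, 0 at 1 μM and 14 at 5 μM, the last being 10.1% beside 23.6% of all genes. Shared decreases within a list are ordered here by the weaker of the 2 changes, so other genes could lie lower in a single library. Among the cytokinesis partners, ROCK2 and ROCK1, kinases that act below RhoA, had the largest shared decreases with the hairpins. In CDK16-sh1 and CDK16-sh2 they were at -1.37 and -1.92 (ROCK2) and -1.14 and -1.12 (ROCK1). KLHL21, an adaptor of the ligase that moves AURKB to the midzone, was above scramble with both, at 0.28 and 0.80, as was TSG101 of the abscission machinery, at 0.44 and 0.17. After Reb, ESPL1 (separase) had 1961 counts in DMSO, 1083 at 1 μM and 54 at 5 μM, at -0.88 and -4.05. PLK1, a mitotic kinase that phosphorylates PRC1 and RACGAP1, was at -0.65 and -2.24. CHMP4C, an abscission subunit that AURKB phosphorylates, lay the other way, with 192, 355 and 1242 counts, at 0.86 and 3.78, and CHMP2B was at 0.37 and 1.14.

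In the docking list, SGO2 and BUB1, which help to place the passengers at centromeres, had the largest shared decreases with the hairpins. In CDK16-sh1 and CDK16-sh2 they were at -0.78 and -0.94 (SGO2) and -0.62 and -0.70 (BUB1). PPP1CC, a catalytic subunit of the phosphatase that opposes AURKB, was above its control in all 4 treated libraries, at 0.36 and 0.25 with the hairpins and 0.21 and 1.39 with Reb. KIF2C, a depolymerizing kinesin and AURKB substrate, was at 0.11 and 0.04 with the hairpins and -0.44 and -2.84 with Reb. RCC2 was at -0.38 and -1.14 with Reb, and CBX1, a heterochromatin protein, at 0.32 and 1.49. Of the kinesins, KIF1C (-0.92 and -2.71) and KIF2A (-0.79 and -1.20) had the largest shared decreases with the hairpins. With Reb these were KIF2C and then KIF18B (-0.41 and -4.46). KIF1B (0.14 and 2.16) and KIF3A (0.10 and 0.68) lay above DMSO.

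In the mitotic entry list, LIN54, the DNA-binding subunit of the MuvB core that recognizes the CHR, was at -1.29 and -1.09 with CDK16-sh1 and CDK16-sh2, and CDK1 at -0.98 and -0.73. E2F4 was at 0.42 and 0.37 and CDC25B at 0.21 and 0.17. After Reb, PLK1 and CDC25B (-0.50 and -3.06) had the largest shared decreases, and no gene of that list was above DMSO at both doses. Of the kinetochore genes, CASC5 (-1.46 and -1.25) and CENPI (-0.69 and -0.94) had the largest shared decreases with the hairpins, and SPC24 was above scramble (0.29 and 0.07). MIS12 (-0.58 and -1.78) and CENPF (-0.57 and -1.83) had the largest shared decreases with Reb, although SPC24, for example, was at -3.48 at 5 μM. SKA1 (0.30 and 0.42) and CENPC (0.23 and 1.47) lay above DMSO. For DNA replication, the largest shared decreases were GINS4 (-0.83 and -1.02) and CDC6 (-0.74 and -0.995) with the hairpins. With Reb they were RRM2 (-0.47 and -3.64) and MCM7 (-0.44 and -1.13), and POLA1 (0.23 and 0.16) and GINS3 (0.22 and 0.71) lay above DMSO.

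Of 6 genes that the study assayed beside PRC1 (CCNB1, CDK1, CDC25C, CDKN1A, CDKN1B and BAX), 0 were at least 2-fold lower or higher with either hairpin. Over all genes, 6.86% and 7.62% were at least 2-fold lower in CDK16-sh1 and CDK16-sh2, and 4.33% and 2.20% higher. All 6 were below DMSO at both doses of Reb, beside 49.8% of all genes at 1 μM and 51.7% at 5 μM. CCNB1, the mitotic cyclin, had 9706 counts in DMSO, 7991 at 1 μM and 378 at 5 μM, at -0.30 and -3.57, whereas CDK1 was at -0.09 and -0.21. CDC25C was at -0.41 and -2.17, CDKN1A (p21) at -1.33 and -1.51, CDKN1B (p27) at -0.64 and -0.71 and BAX at -0.64 and -1.40. In CDK16-sh1 and CDK16-sh2, CDK1 was at -0.98 and -0.73, the lowest of the 6 with each hairpin. CCNB1 was at -0.10 and -0.12, CDC25C at -0.09 and 0.16 and CDKN1A at 0.23 and -0.42. CDKN1B was at -0.06 and 0.18 and BAX at 0.60 and 0.19. The list was drawn from what the study measured, so it is no independent sample of genes.

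Over the 4 log2 fold changes together (CDK16-sh1, CDK16-sh2, Reb 1 μM and Reb 5 μM), the pattern of PRC1 was compared by Euclidean distance with that of 10553 other genes at a mean of 5 CPM or more in both experiments. The nearest were RIC8B (distance 0.07), AP1B1 (0.08), EP400 (0.10), SMIM10L1 (0.14) and CAPN7 (0.16), none of them in the lists above. Of the other 9 genes, KIF23 came nearest, at place 81 with a distance of 0.34. BIRC5 (place 1888) and KIF4A (2172) came next, then RACGAP1 (4206), ECT2 (5497), INCENP (8480), KIF20A (9121) and CDCA8 (10085). AURKB was at place 10526 of 10553, with a distance of 4.96.

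Some of the counts are shared territory. Exons of 5 of the 10 overlap exons of another gene on the opposite strand: PRC1 with PRC1-AS1 over 406 bases (7.35% of its exon length), KIF23 with RP11-253M7.1 over 231, RACGAP1 with AQP6 over 137, KIF20A with BRD8 over 132 and CDC23 over 68, and KIF4A with PDZD11 over 77. The libraries were made with a stranded kit, but whether counting used the strand is not given in the sources used here. PRC1-AS1 had 1708, 1456 and 1446 counts in scramble, CDK16-sh1 and CDK16-sh2, and 3828, 3693 and 1895 in DMSO, Reb 1 μM and Reb 5 μM. BRD8 had 11029, 7858 and 2865 counts in the Reb libraries and CDC23 2784, 3493 and 4371, on either side of KIF20A. The other overlapping genes had 1486 counts or fewer in every library. KIF4B, a near-identical copy of KIF4A, had 6 counts or fewer in every library and ECT2L had 5 or fewer. AURKB, INCENP, CDCA8, BIRC5 and ECT2 shared no exon base with another listed gene.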

How the data were processed

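RNA-seq was done on 6 MDA-MB-231 libraries made with a stranded mRNA kit, 1 per condition, and grouped by the labels' treatment. Per the labels, the authors trimmed reads with Trimmomatic and counted them per gene on GRCh38 with featureCounts of Subread 1.5.1; the aligner, annotation and strand setting are not given in the sources used here. The deposited count tables hold whole-number counts, and the deposited RPKM tables hold the authors' counts per exon length and library size, with no other scaling.

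From the counts, TMM-scaled CPM, RPKM and log2 fold changes (prior count 2) were computed with edgeR 4.0.16 in R 4.3.3 for genes averaging 1 CPM or more. Intervals are 95% Clopper-Pearson intervals of the 2 counts (SciPy 1.17.1) and cover counting error only, since reads had no molecular identifiers. A difference of at least 2-fold is a description with 1 library per group. The treated libraries of each experiment were also tested as 1 group with edgeR's quasi-likelihood test and DESeq2 1.42.0 (Benjamini-Hochberg over all genes). GC content was available for all 10 genes and for 99.1% of expressed genes.

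The 10 genes and all lists were chosen with earlier results of these data known. Beyond the 10 and CDK16, named genes are the 2 largest shared decreases and 2 largest shared increases of each list and experiment (average of 5 CPM or more, ordered by the weaker of the 2 changes), the 6 genes assayed in the study, the 5 nearest to PRC1, and genes overlapping or copying one of the 10. Alternatives were DESeq2 size factors, library totals, TMM without mitochondrial transcripts, the authors' RPKM with 0.1 added, no filter, a prior count of 0.5, a 1.5-fold threshold, and removal of the GC and length trend by loess. Promoter sequences are RefSeq's.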

Additional observations from a re-analysis of the deposited data

Results flagged for a closer look

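At 3 genes the treated libraries of an experiment lay on opposite sides of their control beyond counting error. BIRC5 was above scramble in CDK16-sh1 and below it in CDK16-sh2, a difference of -0.31 on the log2 scale (CDK16-sh2 minus CDK16-sh1). PRC1 was below DMSO at 1 μM Reb and above it at 5 μM, a difference of 0.32, and KIF23 likewise, a difference of 0.14. With 1 library per condition these differences were not tested, and those of PRC1 and KIF23 turned to -0.42 and -0.60 with scaling by library totals.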

How the results depend on the processing

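No paired analysis was possible because each group was 1 library, and no replicate could be left out. Of the counts of genes past a threshold, 121 stayed within 1.5 times under an alternative and 22 did not, and no called gene changed direction. In CDK16-sh1 the count at least 2-fold lower went from 2 to 1 with the GC and length trend removed and to 4 at 1.5-fold. In CDK16-sh2 it went from 0 to 1 at 1.5-fold. The count higher in CDK16-sh2 than in CDK16-sh1 went from 1 to 0 with library totals and with RPKM. At Reb 1 μM the count lower went from 1 to 0 with library totals, RPKM and the GC trend removed, AURKB then lying at -0.96, -0.95 and -0.87. Between the Reb doses the count lower went from 4 to 7 with library totals, RPKM and 1.5-fold. With the GC and length trend removed, ECT2 entered that group and INCENP left it. With dose as a linear term, 4 genes were called and not 0. In the 6 related lists, 21 genes lower in CDK16-sh1 became 8 and 16 lower in CDK16-sh2 became 10 with the GC trend removed. The count higher in CDK16-sh1 went from 0 to 1 without the filter, and in CDK16-sh2 from 1 to 0 with library totals and RPKM and to 2 without the filter. At Reb 5 μM, 14 higher became 3 with library totals and RPKM, and 9 without the filter or with the GC trend removed. Library totals moved the median of all genes by -0.19 in CDK16-sh2, -0.68 at Reb 5 μM and -0.74 between the Reb doses. The share of all genes past a threshold is not given under these alternatives. The changed counts are therefore no comparison with other genes. The cause of the shifts of the median was not tested. The lowest count among the 10 genes was 78, for AURKB at Reb 5 μM, which sets the width of that interval.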
